A study of Mus musculus with 2 samples.

Results

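Plasmacytoid dendritic cells (pDC) were taken from the CD45+ cells (leukocytes) of Colon26 tumours as the cells with at least 2 reads of Siglech per 10000 reads (CP10k) and at least 0.5 CP10k of Ccr9, Klk1 or Cox6a2. They also had less than 1 CP10k of C1qa, a macrophage gene, and less than 2 CP10k of Trac, a T cell gene, and at most 25% mitochondrial reads. The rule kept 118 of 7732 cells, from 14 mice. Siglech encodes a sialic acid binding receptor of mouse pDC, Ccr9 the receptor of the chemokine CCL25, Klk1 a tissue kallikrein (a serine protease) and Cox6a2 the muscle-type form of a cytochrome c oxidase subunit. The members were thus chosen by their levels of these 6 genes, which are given as a description.

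All mice were wild-type BALB/c mice with Colon26, a mouse colon carcinoma line, grown under the skin of the right flank, and tumours were taken on day 10. The Control group (n = 3) received neither agent as far as the labels say. The minP1 group (n = 4) received an immunostimulatory peptide of HMGN1, 0.08 µg into the peritoneum on day 9. The PDL1 group (n = 3) received the anti-PD-L1 antibody clone 10F.9G2, 200 µg on days 4 and 8, and the minP1_PDL1 group (n = 4) received both. They call the cells intestinal as well as tumour cells, and the tumour site is used here. The mouse was the replicate. A hashtag antibody marked each mouse's cells, and no barcode was shared between mice.

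pDC are dendritic cells of the blood, lymphoid organs and inflamed tissue that sense RNA and DNA in endosomes through Toll-like receptors 7 and 9 and can secrete large amounts of type I interferon. The E protein TCF4 (E2-2), which binds E-box sequences, drives their development, while ID2 opposes it and favours conventional dendritic cells. In tumours pDC are often described as poorly activated cells.

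Siglech was required by the gate, and Ccr9 and Klk1 were 2 of its 3 alternative second markers, with Cox6a2 the other. The stretches just upstream of the RefSeq start sites (GRCm38.p6) of Siglech, Ccr9 and Klk1 are shown as those of the genes that chose the cells, with E-box cores (CANNTG, which reads the same on both strands) in capitals. They lie on the plus strand at chr7:55767934-55768183 (Siglech), chr9:123766961-123767210 (Ccr9) and chr7:44225110-44225359 (Klk1).
Siglech: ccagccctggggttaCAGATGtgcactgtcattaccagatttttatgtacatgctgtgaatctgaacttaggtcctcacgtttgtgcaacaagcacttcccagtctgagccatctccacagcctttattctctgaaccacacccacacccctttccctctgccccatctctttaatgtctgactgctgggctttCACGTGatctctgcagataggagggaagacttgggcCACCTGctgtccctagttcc
Ccr9: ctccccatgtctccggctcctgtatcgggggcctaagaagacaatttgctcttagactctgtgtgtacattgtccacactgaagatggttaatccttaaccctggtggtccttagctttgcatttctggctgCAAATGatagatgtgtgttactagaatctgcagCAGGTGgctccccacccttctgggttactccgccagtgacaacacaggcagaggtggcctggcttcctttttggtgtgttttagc
Klk1: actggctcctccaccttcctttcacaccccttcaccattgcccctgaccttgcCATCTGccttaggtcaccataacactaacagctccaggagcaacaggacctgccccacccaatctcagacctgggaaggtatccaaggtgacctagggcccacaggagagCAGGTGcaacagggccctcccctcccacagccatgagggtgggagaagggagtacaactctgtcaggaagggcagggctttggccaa
Each stretch held the narrower form CACCTG on either strand (CAGGTG on the other), which is itself a CANNTG core. In windows of 300 bases that run past the start, 20% of 27025 mouse promoters held CACCTG and 72.1% held CANNTG. Of the 25 genes that led the gated cells (below), 18 were in the promoter table, and 3 of these held CACCTG and 13 CANNTG. An ETS-type site (GAGGAAG, other strand CTTCCTC), the kind bound by SPIB, was in none of the 3 windows and in 13.5% of all promoters. A match of letters is a description and shows no binding.

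Few cells lay near the Siglech limit of the gate. Of 193 kept cells with Siglech at 2 CP10k or more, 176 also had a second marker. Among these, 58 were left out for C1qa or Trac, 31 by C1qa and 40 by Trac, with some in both counts. In the members, 84 had all 3 second markers at 0.5 CP10k or more, 25 had 2 and 9 had 1. The lowest Siglech levels inside the gate were 2.22, 2.79 and 2.98 CP10k, and the highest outside it, in cells that met the other criteria, were 1.83, 1.29 and 1.27 CP10k. Siglech in members ran from 2.22 to 77.8 CP10k with a median of 19.1, and 9 members were at 2 to 4 CP10k. Outside the gate it reached 65.0 CP10k, in a cell left out for Trac. Ptprc, the gene of CD45, was at 0.5 CP10k or more in 117 of the 118 members.

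Reads per pDC ran from 9967 to 268181 with a median of 52016. The other kept cells had a median of 38720 reads. Members with over 2 times their mouse's median reads numbered 36, and 37 held at least 5 CP10k of summed markers of other types (such as Lyz2, Ncr1 and Cd3e). Whether these were doublets was not tested, and results were repeated without them.

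The members carried the regulators of the pDC lineage. Tcf4 was read in 98.3% of pDC at 10.2 CP10k ± 3.92 (SD over 14 mice), against 0.457 ± 0.0851 in all other kept cells. Runx2, which guides pDC out of the bone marrow, was at 10.7 CP10k ± 3.38 in pDC and at 1.02 in the others. Spib, an ETS factor of pDC, stood at 1.78 against 0.0332 CP10k, and Bcl11a, a zinc finger factor needed for pDC, at 2.43 against 0.0692 CP10k. Irf8 was high in pDC (28.6 CP10k ± 6.23) but also in type 1 conventional dendritic cells (cDC1, 21.5 CP10k) and NK cells (21.6 CP10k). Reference cells for comparison were gated on their own markers, with 38 cDC1, 131 cDC2, 476 macrophages, 2290 T cells and 1159 NK cells, and levels are means over 14 mice (cDC1, the 7 mice with at least 3 such cells). Id2 was lower in pDC (3.42 CP10k) than in any of these 5 gates (5.52 to 15.4 CP10k), and Zbtb46, a factor of conventional dendritic cells, stood at 0.0409 CP10k against 0.336 in cDC1. Of 9 listed conventional dendritic cell factors none was highest in pDC, while 9 of 20 listed pDC factors were. These are levels in a gated class, so no test was made against the rest.

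The heat map of mean levels sets these genes beside the other groups described below.

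**Figure D1:**
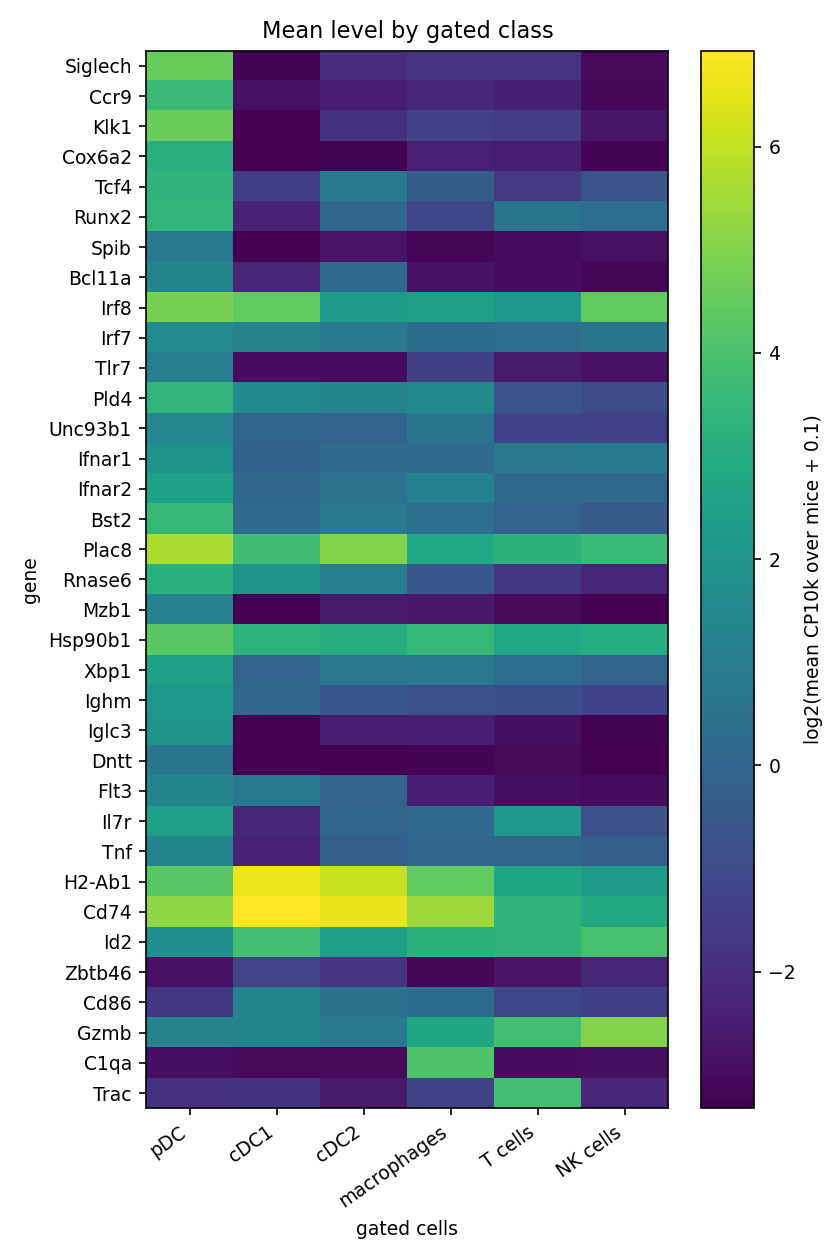
Mean level of 35 genes (rows) in 6 gated classes (columns), coloured by log2 of mean CP10k over mice plus 0.1. Tcf4, Runx2, Tlr7, Mzb1 and Iglc3 were brightest in pDC, while H2-Ab1, Cd74 and Cd86 were brightest in cDC1. C1qa and Trac, used in the gate, are bright in macrophages and T cells.

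The 25 genes with the largest ratio of mean level in pDC to all other kept cells (0.1 CP10k added to both), the 6 of the gate set aside, held 9 of the listed pDC surface and secreted markers, 3 pDC transcription factors and 2 of the listed B lineage genes, Iglc3 and Dntt. Fcrla, a B cell Fc receptor-like gene, led at 6.10 CP10k ± 1.69 (39.7 times the others), and every mouse lay between 3.88 and 9.01 CP10k. Iglc3, a lambda light chain constant gene, stood at 3.86 CP10k ± 1.74 (29.7 times), Blnk, a B cell receptor adaptor, at 3.81 ± 1.64 (23.8 times), and Mzb1, an endoplasmic reticulum protein of antibody-secreting cells, at 2.23 ± 0.958 (19.5 times). Dntt, the terminal transferase of lymphoid precursors, was read in 39 of 118 pDC (33.1%) and in 0.407% of the other kept cells. The other leaders included Rnase6, a secreted ribonuclease (9.27 CP10k ± 2.63), Kmo, an enzyme of tryptophan breakdown (2.77 ± 1.23), Pltp, a phospholipid transfer protein (6.31 ± 1.40), and Flt3, the receptor of the dendritic cell growth factor FLT3 ligand (2.46 ± 1.06). By a gate on Cd79a and Ms4a1, 14 of the 7732 kept cells were B cells. The 5 reference gates do not include them, so pDC levels were not compared with B cells. Of 19 measured B lineage genes, 10 were higher in pDC than in all 5 reference gates, among them Ighm at 4.31 CP10k ± 1.34. In contrast, Cd79a, Blk, Ebf1, Pax5, Ms4a1 and Vpreb3, genes of the B lineage, had no read in any member. If the cells were independent, 0 of 118 would allow a share of cells with a read of up to 2.54%. That limit covers counting error and not the spread between mice or in depth.

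Some sensing genes of the endosome were higher in pDC than in the 5 reference gates. The receptors of RNA and DNA were read in unequal shares of cells. Tlr7, the receptor of single-stranded RNA, was read in 53.4% of pDC at 2.01 CP10k ± 0.697, against 7.12% of the other kept cells. After thinning to 10000 reads per cell it was read in 44.4% of 117 pDC (1 shallower cell left out) and 1.68% of NK cells. The thinned shares of macrophages, T cells and the other dendritic cells are not given here. Tlr9, the receptor of CpG DNA, was read in 3 pDC (2.54%). Pld4, an endosomal nuclease, stood at 10.7 CP10k ± 1.97 and was 2.87 to 2.90 in macrophages and cDC1. Unc93b1, which carries these receptors to endosomes, was at 2.60 CP10k ± 1.01, and Slc15a4, an endolysosomal transporter needed for the response, at 1.36 ± 0.709, both above all 5 reference gates. In the list of 26 nucleic acid sensing genes 13 were highest in pDC, and the summed level (80.3 CP10k ± 12.4) was close to that of macrophages (83.1 CP10k).

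The interferon response genes were low in pDC beside other dendritic cells and macrophages. Of 20 listed interferon genes, Ifnb1 and Ifng were analysed and the others were not analysed here. Ifnb1 had no read in any pDC. The 35 genes of the type I interferon response summed to 32.8 CP10k ± 12.8 in pDC, below cDC2 (78.7), cDC1 (47.4), macrophages (45.0) and T cells (38.3) and above NK cells (24.2), and 3 of the 35 were highest in pDC. Both chains of the type I interferon receptor were higher in pDC than in any reference gate, with Ifnar1 at 3.65 CP10k ± 1.91 (0.818 to 1.71 in the gates) and Ifnar2 at 5.68 ± 1.96 (1.00 to 2.19). Tnf, an inflammatory cytokine, was at 2.34 CP10k ± 2.57 and Il6 at 0.0204 CP10k. The SD of Tnf exceeded its mean.

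Genes of the secretory apparatus were higher in pDC than in the reference gates, and MHC class II genes were lower than in the other dendritic cells. Of 29 genes of the secretory pathway and the unfolded protein response, 20 were highest in pDC, with a sum of 111 CP10k ± 13.3 against 59.5 to 78.3 in the reference gates. Hsp90b1, the chaperone of Toll-like receptors, stood at 19.8 CP10k ± 4.56 (7.04 to 11.2 in the gates) and Xbp1, a driver of secretory capacity, at 5.75 ± 1.48 (0.848 to 1.66). None of 13 MHC class II genes was highest in pDC. Their sum was 108 CP10k ± 36.5 in pDC, 394 in cDC1, 306.3 in cDC2 and 152 in macrophages, but 35.2 in T cells and 26.7 in NK cells. The 13 MHC class I presentation genes summed to 168 CP10k ± 20.1 in pDC, above cDC1 (153) and cDC2 (148) and below macrophages (179), NK cells (189) and T cells (219). Cd86, a costimulatory ligand, was at 0.206 CP10k in pDC and 2.38 in cDC1, and Cd274, the gene of PD-L1, at 1.49 ± 1.69 against 1.41 in cDC1 and 2.49 in macrophages. Mki67, a proliferation gene, was read in 11 members and Top2a in 17, with both in 5. The plot of list sums by class sets these sums side by side.

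**Figure D2:**
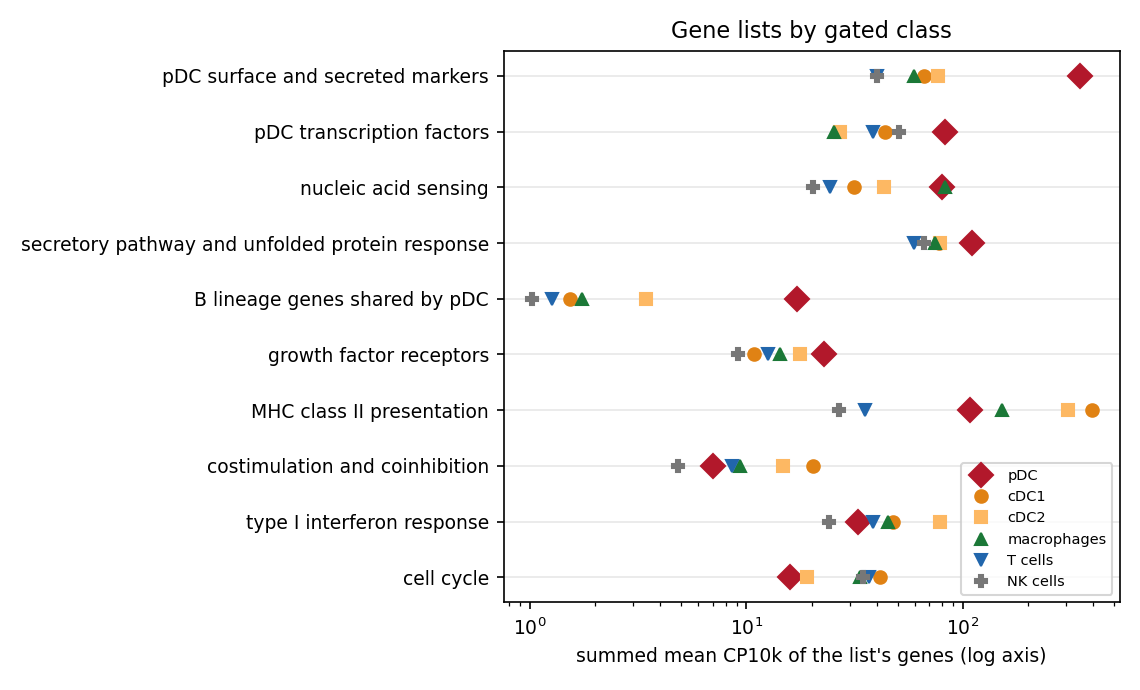
Summed mean CP10k (log axis) of 10 gene lists in pDC (red diamonds) and 5 reference gates, none of them of B cells. The pDC marker list includes 4 genes of the gate. pDC were highest in the pDC marker, pDC transcription factor, secretory, B lineage and growth factor receptor lists. In the MHC class II list they were below cDC1 and cDC2 (108 against 394 and 306.3 CP10k).

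Levels of surface molecules and receptors also set the class apart from the 5 reference gates. With the 4 genes of the gate set aside, 33 of 38 measured pDC surface and secreted markers were highest in pDC. Bst2, the antigen of the antibody PDCA-1, was at 11.7 CP10k ± 2.30 in 99.2% of members (0.646 to 1.84 in the gates). Ly6c2, a surface antigen shared with monocytes, stood at 25.7 CP10k ± 7.55 (1.59 to 7.39 in the gates). No gate of monocytes was made, so its level in pDC was not compared with theirs. Ccr7, the receptor of mature migrating dendritic cells, was at 0.243 CP10k in pDC and 3.39 in T cells. Il7r, the interleukin-7 receptor, was at 5.65 CP10k ± 2.62, next to T cells at 4.28. Il12a, a subunit of interleukin-12, was read in 34.7% of pDC at 1.47 CP10k ± 1.14 and stood at 0.0108 to 0.0782 CP10k in the gates. With Klk1 and Cox6a2 set aside, 7 of 12 measured kallikreins and 1 of 14 cytochrome c oxidase subunits were highest in pDC. Only 2 kallikreins, Klk1 and Klk1b27, were at 1 CP10k or more in pDC. The 12 without Klk1 summed to 5.37 CP10k, with Klk1b27 at 4.15, so most were near 0. Klk1b27 shares sequence with Klk1, a gate gene, and the split of reads between them is uncertain. Cox6a1, the common form of the subunit that Cox6a2 encodes, stood between 3.30 and 4.53 CP10k in the gates and within that range in pDC.

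The members also varied among themselves in the genes that chose them. Klk1 ran from 0 to 92.9 CP10k over the 118 cells with a median of 16.9, Ccr9 from 0 to 40.8 with a median of 8.44, and Cox6a2 from 0 to 40.6 with a median of 5.53. Klk1 had a read in 94.9% of members and in 91.5% after thinning, and Cox6a2 in 83.9% and 79.5%. Over cells, Siglech correlated with Ccr9 at r = 0.45, with Tcf4 at 0.41, with Cox6a2 at 0.35 and with Klk1 at 0.28. This is a description of cells that share libraries, differ in depth and were cut by the gate on Siglech and its second markers. Of 30 cell cycle genes a member had reads of 5 in the median and 26 at most.

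Markers of other cells were read at the summed levels below, of which those of T cells and macrophages were limited by the gate, since it left out cells with Trac or C1qa. With Trac and C1qa set aside, the other 11 T cell markers summed to 4.48 CP10k in pDC (59.7 in T cells) and the other 11 macrophage markers to 15.2 (114 in macrophages). The 10 NK markers summed to 11.1 CP10k (120 in NK cells) and the 10 B cell markers to 0.328, with 6 of the 10 at 0. Siglech reads also occurred outside the gate. The gene was read in 2.24% of NK cells (0.973% after thinning), a type that should lack it, and in all pDC. The median reads of these classes were 38129 and 52016 per cell.

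The share of pDC did not differ between the 4 groups beyond the spread between mice. Control mice had 11, 12 and 6 pDC (2.27%, 1.85% and 1.20% of kept cells), and minP1 mice 11, 9, 8 and 9 (1.95%, 1.51%, 1.10% and 1.40%). PDL1 mice had 7, 5 and 7 (1.45%, 1.07% and 1.39%), and minP1_PDL1 mice 6, 6, 11 and 10 (1.08%, 1.14%, 2.26% and 1.82%). All groups overlapped. Fewer cells of a type and fewer cells captured cannot be told apart in such shares. The means were 1.78% ± 0.542 for the 3 Control mice, 1.49% ± 0.350 for the 4 minP1 mice, 1.30% ± 0.202 for the 3 PDL1 mice and 1.57% ± 0.568 for the 4 minP1_PDL1 mice (permutation test of F over the 4 groups, p = 0.647). The 5 pairs gave two-sided exact permutation p from 0.3 to 0.857, all at least 0.714 after adjustment over the pairs.

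Among gated dendritic cells (pDC, cDC1 and cDC2 together) no pair of groups passed for the pDC share either. It was 61.1%, 42.9% and 50% in the Control mice and 38.9%, 35.7% and 36.8% in the PDL1 mice, so these groups did not overlap. The means were 51.3% ± 9.20 and 37.1% ± 1.61 (exact permutation test, two-sided, p = 0.1 and adjusted p = 0.286; 0.1 is the lowest value possible with 3 mice a side). The minP1 mice lay at 47.8%, 40.9%, 24.2% and 33.3% (mean 36.6% ± 10.1, exact permutation p = 0.114 against Control). The minP1_PDL1 mice lay at 46.2%, 27.3%, 50% and 62.5% (mean 46.5% ± 14.6, exact permutation p = 0.686). With so few cells per mouse, 1 cell moves a share by several points.

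**Figure D3:**
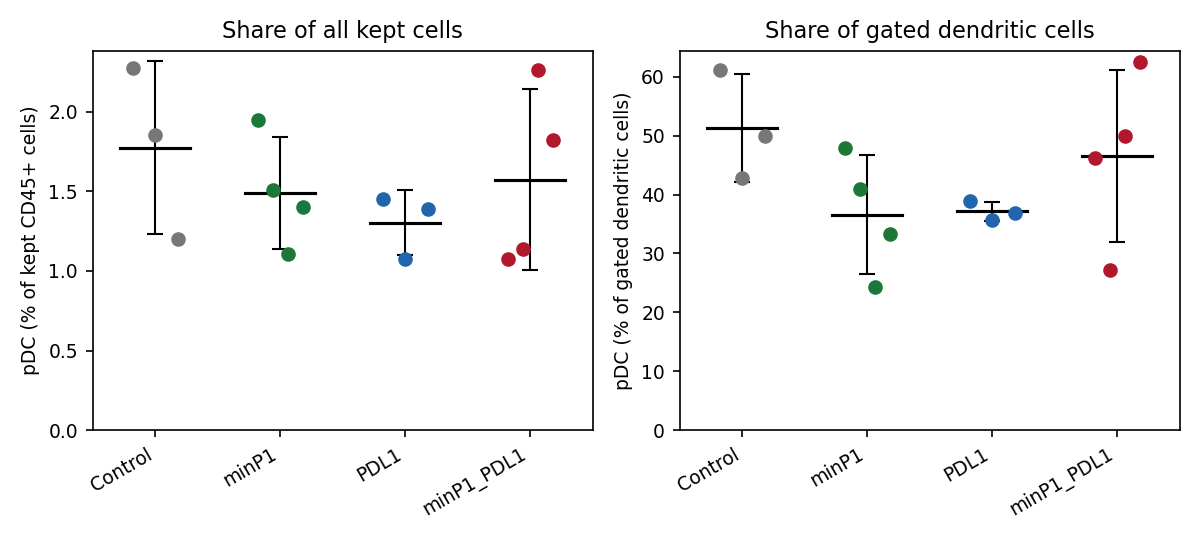
pDC as a share of all kept cells (left) and of gated dendritic cells (right), in percent, 1 point per mouse, with the group mean (bar) and SD (whiskers). On the right the 3 PDL1 mice (35.7% to 38.9%) sit below the 3 Control mice (42.9% to 61.1%).

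Gene levels within pDC were compared on reads summed per mouse, in 1 fit of all 14 mice with edgeR's quasi-likelihood test. Mice entered with 5 to 12 pDC and 200436 to 1030669 summed reads, and the PDL1 group had the fewest cells (19). No gene of 8643 tested passed an adjusted p of 0.05 in any of the 5 pairs or in the interaction (minP1_PDL1 minus PDL1, less minP1 minus Control), which is 0% of genes called in each. An unadjusted p under 0.05 was reached by 256 genes for minP1 against Control, 612 for PDL1 against Control, 294 for minP1_PDL1 against Control, 294 for minP1_PDL1 against minP1, 659 for minP1_PDL1 against PDL1 and 499 for the interaction. DESeq2 called 5, 35, 4, 3, 32 and 21 genes in the same order. In simulated data for minP1 against Control, the edgeR test recovered 79.2% of 16-fold changes and 10% of 4-fold changes among genes at 1 CP10k or more, and 35.6% and 2.25% of these changes over all genes tested. Most changes of 4-fold were thus not detected in that simulated comparison, and the other comparisons were not simulated.

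The genes of smallest p were low and read in few cells. Rnf5, a ubiquitin ligase of the endoplasmic reticulum, was at 0.710, 0.292 and 0.173 CP10k in Control, at 0, 0, 0.0186 and 0 in minP1, at 1.46, 0.197 and 0.272 in PDL1, and at 0.463, 2.12, 0.259 and 1.15 in minP1_PDL1. The minP1 mice lay below all others, with 1 of their 37 pDC holding a read, against 8 of 29 in Control. Of all genes tested, 3% lay lower in minP1 than in Control without overlap, and 1.1% higher in minP1_PDL1 than in minP1. The edgeR adjusted p of Rnf5 was 0.428 for minP1 against Control, 0.0945 for minP1_PDL1 against minP1 and 0.798 for the interaction. Slamf6, a receptor of lymphocytes, and Creb5, a transcription factor, followed in minP1 against Control, with a read in 1 and 2 minP1 pDC against 9 and 8 Control pDC. In PDL1 against Control they were Tbcb, a tubulin folding cofactor, Trappc4, a vesicle tethering subunit, and Jun. Tbcb had no read in the 19 PDL1 pDC and a read in 10 of 29 in Control, and Trappc4 a read in 3 against 14. Lin37, a cell cycle repressor subunit, led in minP1_PDL1 against Control with a read in 0 of 33 pDC against 8 of 29, ahead of Jun and Anxa3 (2 cells against 7).

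Lin37 was also among the 3 of smallest p in minP1_PDL1 against minP1 (0 pDC against 8), with Rnf5 and Aig1 (8 pDC against 1). In minP1_PDL1 against PDL1 the 3 of smallest p were Srm, the spermidine synthase (11 pDC against 0), Arg1 (17 against 4), and Tbcb (7 against 0). Arg1, an enzyme of arginine breakdown seen in suppressive myeloid cells, was at 0.287, 0.429 and 0 CP10k in PDL1 and at 3.56, 4.90, 3.39 and 1.59 in minP1_PDL1. These groups did not overlap, as was so with minP1_PDL1 higher for 3.93% of all genes tested and with it lower for 1.9%. Its log2 difference was 4.11 (SE 0.98), and its adjusted edgeR p was 0.644. DESeq2 gave Arg1 an adjusted p of 0.0172 and edgeR with no filter on low counts one of 1.72e-08. Its difference was 1.20 without the cells that held markers of other types and 1.98 without the cells over 2 times their mouse's median reads, both with every mouse kept and neither past the threshold (adjusted p = 0.972 and 1), and over all alternatives the adjusted p ran up to 1. Leaving out the cells with markers of other types left 3, 2 and 6 pDC in the PDL1 mice. The interaction was led by Rnf5, Procr and Creb5. All of these genes apart from Jun and Arg1 had a mean under 1.5 CP10k in each group, and none of the adjusted p for these 3-gene sets was under 0.0945 by edgeR as set out above. Of these 18 results (3 genes in each of 6 comparisons), 14 passed with DESeq2, 5 in edgeR with no filter on low counts, and 17 in at least 1 of the alternatives.

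Klk1, the kallikrein gene that is one of the gate's 3 second markers, is described here by its level in each mouse. Mean Klk1 was 24.1, 33.1 and 26.1 CP10k in the Control mice and 30.9, 27.1, 15.97 and 32.9 in the minP1 mice. It was 29.4, 36.2 and 27.8 in the PDL1 mice and 10.3, 11.03, 11.4 and 19.9 in the minP1_PDL1 mice. The gate used this gene, so no test is given on these cells. In the 129 cells gated with no demand for a second marker, whose choice did not use Klk1, the log2 difference of minP1_PDL1 was -0.91 (SE 0.28) from Control, -1.01 (SE 0.28) from PDL1 and -0.71 (SE 0.26) from minP1. None passed in edgeR (adjusted p = 1, 0.637 and 1). The gene was singled out among the core markers after its values were seen.

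Cox6a2, also a second marker of the gate, stood at 7.18, 8.32 and 3.46 CP10k in Control, at 6.80, 7.59, 4.26 and 7.85 in minP1, at 11.8, 8.06 and 13.4 in PDL1 and at 10.5, 11.7, 11.7 and 11.9 in minP1_PDL1. In the 129 cells chosen without it, its log2 differences from Control were 0.61 (SE 0.32) in PDL1 and 0.70 (SE 0.30) in minP1_PDL1, and neither passed in edgeR (adjusted p = 0.70 and 1). Among the members, the PDL1 difference turned to -0.14 without the cells over 2 times their mouse's median reads, in the 10 mice with 5 or more such cells left.

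Jun and Fos, whose products form the AP-1 transcription factor and which rise within minutes of many stimuli including tissue digestion, were lowest in Control. Jun was at 3.58, 4.03 and 1.37 CP10k in Control, 5.90, 4.29, 6.79 and 8.77 in minP1, 7.62, 16.9 and 8.16 in PDL1, and 5.30, 11.8, 15.2 and 16.4 in minP1_PDL1. Of all genes tested, 2.95% lay above Control without overlap in minP1, 3.01% in PDL1 and 2.83% in minP1_PDL1. For Jun, every treated mouse lay above every Control mouse. The log2 difference from Control was 1.00 (SE 0.39) in minP1, 1.69 (SE 0.42) in PDL1 and 1.59 (SE 0.40) in minP1_PDL1, and none passed in edgeR (unadjusted p = 0.0186, 0.000605 and 0.000684; adjusted p = 1, 0.689 and 1). DESeq2 gave an adjusted p of 0.0170 for PDL1 against Control, the lowest of the alternatives, whose adjusted p reached 1. Once the cells that held markers of other types were left out, the PDL1 mice held 3, 2 and 6 pDC. With every mouse kept, the Jun difference was then 0.33 in PDL1, 1.00 in minP1 and 1.47 in minP1_PDL1. These comparisons share the 3 Control mice. Fos was at 8.82, 7.62 and 7.06 CP10k in Control, 9.74, 9.50, 10.95 and 23.8 in minP1, 16.02, 25.2 and 12.6 in PDL1, and 12.3, 9.81, 19.9 and 26.2 in minP1_PDL1, again without overlap with Control. The log2 differences of Fos from Control were 0.56, 0.99 and 0.88, with unadjusted edgeR p of 0.151, 0.0225 and 0.0303, and the first turned to -0.28 in the 5 mice with at least 10 pDC. Without the cells that held markers of other types, with every mouse kept, the Fos difference was -0.17 in PDL1.

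**Figure D4:**
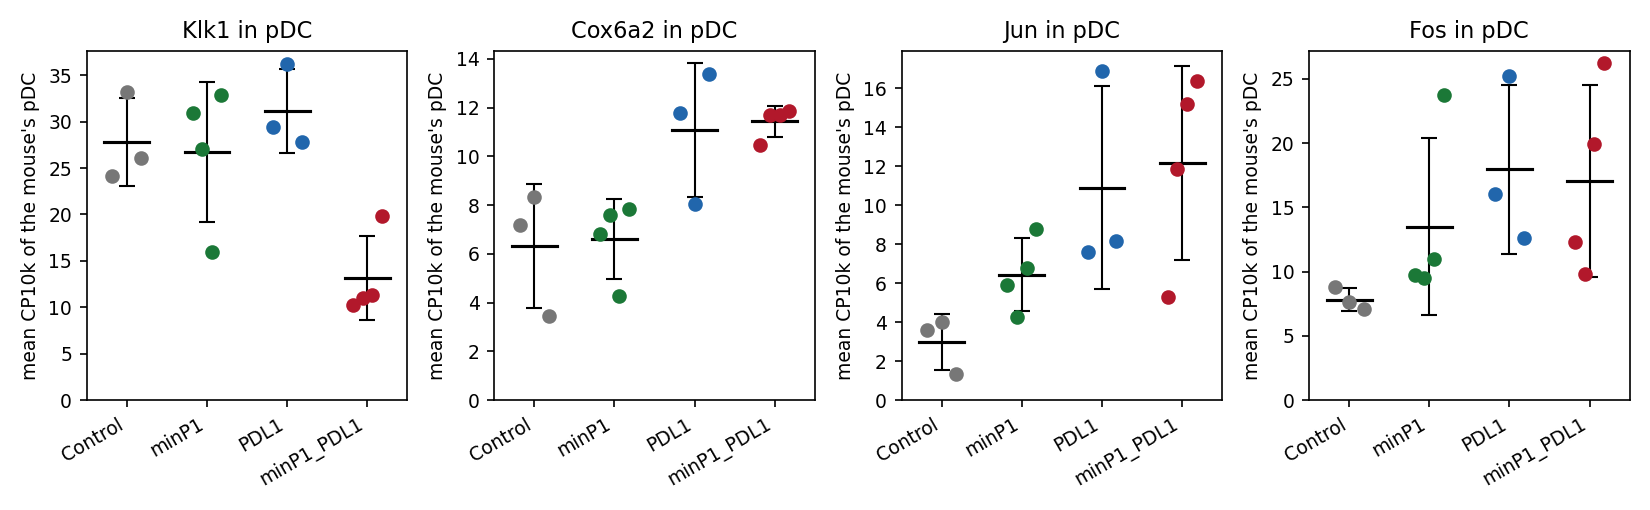
Mean CP10k of Klk1, Cox6a2, Jun and Fos in the pDC of each mouse (1 point per mouse; bars, group mean; whiskers, SD). Klk1 and Cox6a2 were used by the gate and are shown as a description (Klk1 lies at 10.3 to 19.9 CP10k in minP1_PDL1), and Jun and Fos are lowest in Control.

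Of the 26 genes listed as immediate early or heat shock genes, 24 were tested. In PDL1 against Control 21 of the 24 had a positive log2 difference, with a median of 0.81, where all genes tested had a median of -0.18 and 43.5% above 0. No member passed, and 10 had an unadjusted edgeR p under 0.05, as had 612 of all 8643 genes tested. That count of members is given for this comparison alone. Without overlap, 5 members lay above Control (3.01% of all genes tested did so) and 2 below (7.57%). In minP1_PDL1 against Control 21 of 24 were above (median 0.52, all genes 0.03 and 51.6% above), and 4 lay without overlap above (2.83% of all genes) and 0 below (2.6%). In minP1 against Control 19 of 24 were above (median 0.47, all genes 0.06 and 52.4% above), with 4 without overlap above (2.95% of all genes) and 1 below (3%). Over mice the list summed to 76.6 to 101 CP10k in Control and to 107 to 143 in minP1. All PDL1 mice were at 149 CP10k, and the minP1_PDL1 mice at 115 to 156.

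These counts differed between the choices of cells kept. Without the 37 pDC that held markers of other types, and with every mouse kept, 22 members were tested. The PDL1 mice then held 3, 2 and 6 pDC and the Control mice 8, 9 and 3. Whether the loss of cells alone would change the counts was not tested. Of these 22 members, 12 were above Control in PDL1 (median 0.17, all genes -0.40), 15 in minP1_PDL1 (median 0.31, all genes 0.02) and 12 in minP1 (median 0.20, all genes 0.00). In the 5 mice with at least 10 pDC, of which 1 was a minP1 mouse, 7 of 24 were above in minP1. Under DESeq2's size factors (edgeR with RLE) the median of all genes in PDL1 against Control was -0.06, and 22 of 24 were above. The NK markers differed beside the list, with PDL1 below Control in every mouse. They summed to 6.72 to 14.3 CP10k in the pDC of Control mice, 7.73 to 34.99 in minP1, 1.77 to 4.63 in PDL1 and 3.33 to 12.7 in minP1_PDL1, with Klra8 at 0 throughout. T cell markers summed to 3.48 to 4.23, 1.97 to 8.35, 0.278 to 7.42 and 3.88 to 8.83 CP10k. Neutrophil markers (10 genes, none at 0) summed to 2.81 to 7.49 CP10k in Control, 2.77 to 25.1 in minP1, 1.61 to 18.4 in PDL1 and 3.11 to 20.5 in minP1_PDL1, and their means were higher in the 3 treated groups (13.5, 10.5 and 13.7) than in Control (5.38), with overlap. Of 8 neutrophil markers tested, 7, 4 and 6 were above Control in these groups (medians 1.35, -0.36 and 1.67). Macrophage markers summed to 11.2 to 21.3, 7.80 to 21.3, 6.11 to 48.8 and 7.03 to 19.2 CP10k in the 4 groups. Apart from the counts without the marker-bearing cells, their part in the result was not tested.

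The same list was read in other gated cells of these mice. Its sum was 98.9 to 154 CP10k in Control cDC2 and 144 to 154 in PDL1 cDC2. In macrophages it was 105 to 129 in Control and 107 to 113 in PDL1, in T cells 135 to 146 and 149 to 164, and in NK cells 138 to 148 and 150 to 186. In T and NK cells the PDL1 mice thus also lay above the Control mice, while in cDC2 and macrophages the groups overlapped. The minP1_PDL1 mice likewise lay above Control in T cells (150 to 173) and NK cells (149 to 198) and overlapped it in cDC2 and macrophages. In each of these classes the minP1 mice overlapped Control. Whether pDC differed from these cells was not tested.

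**Figure D5:**
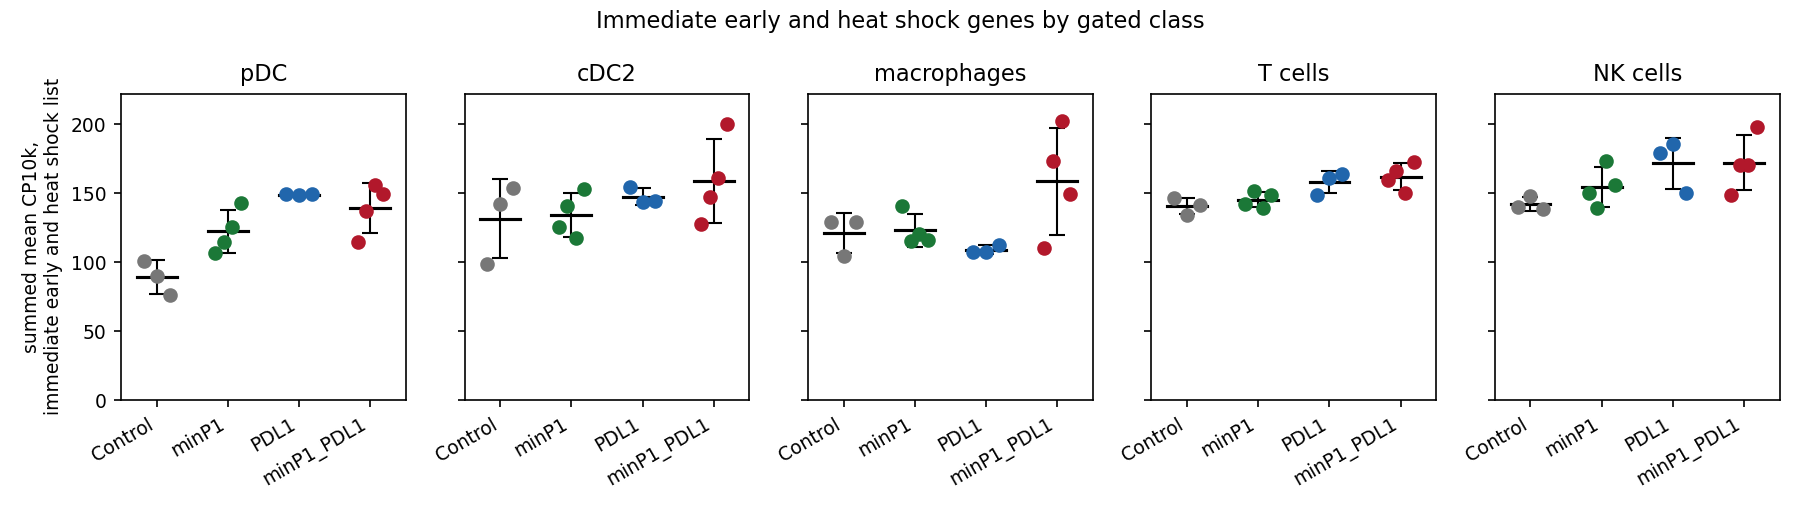
Summed mean CP10k of the 26 immediate early and heat shock genes in 5 gated classes, 1 point per mouse with group mean (bar) and SD (whiskers). In pDC the Control mice (76.6 to 101) sit below all treated mice, and macrophages of Control and PDL1 mice overlap.

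No member of the other pDC lists passed in any comparison. With the gate's 4 genes set aside, 38 pDC surface and secreted markers were tested, of which 22 were above Control with minP1, 28 with PDL1 and 17 with both (medians 0.07, 0.27 and -0.02; all genes 0.06, -0.18 and 0.03). Their summed level was 274 CP10k ± 15.1 in Control, 307.3 ± 33.8 in PDL1, 265 ± 21.5 in minP1 and 273 ± 51.4 in minP1_PDL1, and the PDL1 mice (274 to 342) overlapped the Control mice (265 to 292). Among 17 tested pDC transcription factors, 16 were above Control in minP1 (median 0.53, all genes 0.06), 13 in PDL1 (0.40) and 14 in minP1_PDL1 (0.35), with no call. Of all genes tested, 52.4%, 43.5% and 51.6% were above Control in these groups. Tcf4 itself had log2 differences from Control of 0.35, 0.54 and 0.20 in these groups. The listed factors summed to 65.8 to 72.0 CP10k in Control mice, 72.6 to 112 in minP1, 82.8 to 110 in PDL1 and 66.7 to 91.6 in minP1_PDL1. In that sum the minP1 and PDL1 mice lay above Control and the minP1_PDL1 mice overlapped it. Klf2 is in this list and in the immediate early list. Of 32 type I interferon response genes tested, 13, 21 and 12 were above Control (medians -0.27, 0.19 and -0.43), and their summed level overlapped in all 4 groups (16.5 to 60.9 CP10k). Irf7, the main factor of interferon gene induction, was at 2.05, 1.77 and 1.60 CP10k in Control and 6.55, 8.30 and 1.43 in PDL1, with 1 PDL1 mouse below Control. Of 13 MHC class II genes the number above Control was 3 with minP1, 2 with PDL1 and 8 with both, again with no call. Of 28 secretory genes 17, 16 and 16 were above Control, and of 24 nucleic acid sensing genes 14 in each treated group. The single pDC genes followed no common order of groups. Tlr7 was at 1.99, 2.81 and 2.35 CP10k in Control and at 1.80, 2.20, 1.64 and 2.39 in minP1_PDL1. Cd274 was at 0.923, 1.11 and 6.10 CP10k in Control, at 0.635, 4.104, 2.25 and 0.526 in minP1, at 0.475, 0.902 and 0.144 in PDL1 and at 0.0954, 0.665, 1.88 and 1.10 in minP1_PDL1. Of the groups given the antibody to its product, PDL1 lay below Control without overlap, as did 7.57% of all genes tested, and minP1_PDL1 overlapped Control. The log2 differences of Cd274 from Control were -1.90 (SE 0.95) and -0.62 (SE 0.84), with edgeR adjusted p of 0.689 and 1.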

How the data were processed

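Single-cell RNA libraries came from CD45+ tumour cells of 14 hashtagged mice (BD Rhapsody, whole transcriptome), per the labels' protocols. The submitters' processing notes name cutadapt 2.10, Bowtie2 2.3.4.1, Seurat 2.3.4 and the build mm10. The authors' table holds raw counts of reads per gene and barcode (22836 genes, 8262 barcodes), with a median of 10 per nonzero entry, and is taken as reads not collapsed by molecule. Intervals from reads or cells would cover counting error only. Columns of no mouse (147, of which 141 are named doublets) were left out, as were cells above 25% mitochondrial reads, and 7732 of 8115 barcodes stayed. No further doublet caller was run. Kept reads per mouse ran from 26007834 to 51230461. The labels mention separate runs and give none per mouse, so run and group cannot be told apart.

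CP10k is reads per 10000 reads of the cell. A class level is the mean over mice of the mean over cells, for mice with at least 3 cells of the class. Shares were compared by permutation of mouse labels (100000 for F, exact for pairs) with Benjamini-Hochberg adjustment over 5 pairs. Reads summed per mouse were tested with edgeR 4.0.16 (TMM, filterByExpr, quasi-likelihood, two-sided) with adjustment over all genes. DESeq2 1.42.0, limma 3.58.1, RLE, other gates and filters, the replicate number as a block and each mouse left out were alternatives. The edgeR script was tested on simulated data. Genes named were the 25 of largest ratio among those at 1 CP10k or more in at least 25% of pDC, 17 core markers, the 3 of smallest p per comparison, and list members given as examples, which like Fos were chosen after values were seen. The members and the 32 lists were chosen with earlier results of these data known. Promoters are RefSeq windows (GRCm38.p6), of which the first start per gene was counted. Of the gate and leading genes, 3 of 4 and 18 of 25 were in that table.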

Additional observations from a re-analysis of the deposited data

Results flagged for a closer look

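The values of the 17 core markers, Jun, Fos, both shares and the median reads per pDC were examined in the groups of 4 mice. Single mice far from the others were sought in 42 sets of 4 values. For normally distributed values chance singles out about 1 in 20 sets. That rate does not hold for Tlr9, Ly6d and Ifit3, which were at or near 0 in the other mice. Klk1 and Cox6a2 were used by the gate. In minP1_PDL1 the fourth mouse had the highest Klk1 level (19.9 CP10k, the others 10.3 to 11.4), which was nearest to the other groups. The first minP1_PDL1 mouse had the lowest Cox6a2 level (10.5 CP10k, the others 11.7 to 11.9). Ly6d, a lymphoid surface gene read in 13 of 118 pDC, was at 0.217 CP10k in the fourth minP1 mouse (the others 0 to 0.00628) and at 4.37 CP10k in the fourth minP1_PDL1 mouse (the others 0 to 0.340). Tlr9 was at 0.240 CP10k in the third minP1_PDL1 mouse, from 1 cell, and at 0 in the other 3. Ifit3, an interferon response gene, was at 2.41 CP10k in the third minP1 mouse and at most 0.0169 in the others, from 2 cells in all. Fos was at 23.8 CP10k in the fourth minP1 mouse (the others 9.50 to 10.95). No gene passed edgeR's test of the interaction.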

How the results depend on the processing

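No share passed under any alternative run. The permutation p of F was 0.286 to 0.862 over the alternatives, 0.286 to 0.858 with single mice left out and 0.704 with the replicate block. With single mice left out, the differences of mean share (points of kept cells) ran from -0.49 to 0.0478 for minP1_PDL1 against Control and from -0.145 to 0.248 for minP1_PDL1 against minP1, and of the share of dendritic cells from -10.2 to 1.56 for minP1_PDL1 against Control. These 3 pairs and minP1_PDL1 against PDL1 therefore have no set direction: without cells over 2 times their mouse's median reads, minP1_PDL1 less minP1 was -0.202 and minP1_PDL1 less PDL1 was -0.0645. The cause was not tested.

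The counts of genes called were 0 in edgeR under the stricter gate (13 mice), the looser gate, no mitochondrial limit, RLE and the replicate block. They were 5, 35, 4, 3, 32 and 21 with DESeq2 (the 5 pairs and the interaction, in the order of the report), 4, 15, 4, 8, 16 and 22 with no filter on low counts, and 19, 11, 8, 11, 13 and 18 without cells that held markers of other types. That last setting left 9 mice with 5 or more cells, of which 1 was a PDL1 mouse. With every mouse kept, an alternative chosen after seeing the data, it gave 2 calls in PDL1 against Control, 3 in the interaction and 0 in the others. Without cells over 2 times the median reads (10 mice left) 1 gene was called in minP1 against Control and 2 in the interaction, and 0 in every comparison with every mouse kept. With at least 10 pDC per mouse the calls were 28 in minP1 against Control, 9 in minP1_PDL1 against Control and 40 in minP1_PDL1 against minP1. These 5 mice include 1 minP1 mouse, assumed to vary like the other groups, and PDL1 could not be fitted. limma on cell means called 1 gene in the interaction. Left-out mice gave 0 to 1 calls in minP1_PDL1 against PDL1 (1 without the second PDL1 mouse) and 0 elsewhere. Fos in minP1 against Control turned to -0.28 with at least 10 pDC per mouse, Cox6a2 in PDL1 against Control to -0.14 without the deep cells in 10 mice, and Fos in PDL1 against Control to -0.17 without cells with markers of other types in all mice.

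No pairing of the mice by the replicate numbers of the labels was seen in the pDC sums, which hold too few cells to exclude one. Same-numbered mice had deviations from their group means that correlated at -0.0496 to 0.0353 over 19 pairs, and 5 of the 19 correlated best with their own number. Small numbers of cells per mouse (5 to 12) limit every value within pDC.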

Other observations

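A family of embryonic genes on chromosome 13 was among the leading genes of pDC. Tcstv3 and AF067063, genes known from the earliest embryo, were at 2.92 CP10k ± 0.922 and 3.46 ± 1.09 over 14 mice, against 0.0169 and 0.0207 in all other kept cells. They were read in 102 and 105 of 118 pDC and in 101 together. Over the 118 cells their log2 levels correlated at r = 0.93, and Tcstv3 correlated with its relatives AF067061, Tcstv1 and Gm20767 at 0.78, 0.69 and 0.52. These points share libraries and depth, and the genes share sequence. Of the 755 windows of 25 bases in Tcstv3 transcripts (GENCODE M21), 35 were also in AF067063, 187 in AF067061, 263 in Tcstv1 and 153 in Gm20767. The split of reads among them is therefore uncertain.

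Gm14634, a gene on chromosome X, was read in 102 of 118 pDC at 1.31 CP10k ± 0.268, the smallest spread over mice relative to its mean among the 25 leading genes. Over the 118 cells it correlated with Tlr3, the receptor of double-stranded RNA, at r = 0.83, with Cpn2 at 0.65 and with Siglech at 0.59. No window of 25 bases was shared between transcripts of Gm14634 and Tlr3, Gm14634 and Siglech, or Tlr3 and Siglech. Tlr3 was itself read in 86.4% of pDC at 1.19 CP10k ± 0.340, above cDC1 (0.601 CP10k), the class it usually marks among dendritic cells. Among the gate's own genes the correlations over cells ran from 0.05 (Klk1 and Cox6a2) to 0.45 (Siglech and Ccr9, Ccr9 and Cox6a2). The gate cut the cells on these genes, and the cells share libraries, so these values are a description and no measure for the others.

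Klk1b27, a close relative of Klk1, was read in 98 of 118 pDC, 3 of them without a Klk1 read, and 94 of its 865 windows of 25 bases occur in Klk1 transcripts. Its 2818 reads stand beside 16344 of Klk1, and the split of reads between them is uncertain.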
